A study of Mus musculus with 60 samples.

Results

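Guanylate-binding proteins (GBPs) and immunity-related GTPases (IRGs) are 2 families of interferon-inducible GTPases. In mouse liver organoids, 10 of their genes are described, chosen by symbol with earlier results of these data known: 7 GBPs (Gbp2, Gbp3, Gbp4, Gbp5, Gbp6, Gbp7 and Gbp9) and 3 IRGs (Igtp, Irgm1 and Iigp1), 10 of the 31354 genes with a row in any of the 3 deposited count tables. All 10 had a row in the passage table and in the single organoid table, and 9 had one in the culture table, where Gbp5 had no row.

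GBPs and IRGs are transcribed after interferon binds its receptor and activated transcription factors, IRF1 among them, reach their promoters. The proteins assemble on the membrane of vacuoles that hold intracellular bacteria or parasites, and on bacteria in the cytosol, where GBPs also promote inflammasome activation. Most IRGs, such as Iigp1, are effectors that load onto vacuoles, whereas Irgm1 and Igtp (also called Irgm3) are regulators that sit on the cell's own membranes and keep the effectors inactive there. Epithelial cells of the liver's bile ducts, from which these organoids grew, carry interferon receptors.

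The 60 libraries were 3′-end RNA-seq of organoids grown from bile duct fragments of C57BL/6N mice, labelled 3 to 4 months old; no interferon or microbe is named as a treatment in the labels or the study's methods. In the culture experiment, 3 dome libraries (organoids embedded in drops of Matrigel) were set against 3 suspension libraries (shaken in dilute Matrigel), from pools of 2, 4 and 3 mice. In the passage experiment, bulk cultures of Sets 1, 3 and 4, each from the liver of 1 mouse, were sequenced at passage 4 and at passage 11 with 2 technical replicates each, which were summed to 6 libraries. In the single organoid experiment, 42 organoids came from 4 sets of 1 mouse each, of which the study kept 35; Set 1 gave 8 (passage 11), Set 2 gave 10 and Set 3 gave 5 (both passage 3), and 12 were from Set 4 (passage 4). Set and mouse, and among single organoids set and passage, therefore cannot be told apart, and organoids of 1 set are not separate animals, so the spread between them is the spread within 1 culture.

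Library totals ran from 1776490 to 14761853 counts in the culture experiment, from 1486347 to 5532630 in the summed passage libraries and from 1059002 to 11175868 in the kept organoids. Levels are given as CPM, the count of a gene scaled to a library total of 1000000, and log2 fold changes with their standard error (SE) come from edgeR's quasi-likelihood fit on all genes; a gene was called at an adjusted P below 0.05. Since the members were chosen with these comparisons in view, their fold changes and calls are a description, and no P-value is given for them. The other gene lists were also chosen with earlier results known, and called genes were named from them by size of change. Their adjusted P-values are likewise a description and not a separate test of the members. In each experiment, all 7 cholangiocyte markers (among them Epcam, Krt7, Krt19 and Spp1) reached 5 CPM in at least 1 library, 2 to 4 of 7 hepatocyte markers did, led by Ttr, and no marker of T and NK cells, B cells, endothelial or mesenchymal cells did. Of 11 macrophage markers, 3 reached 5 CPM: Cd14 (up to 1186 CPM, in the summed passage table), Cd68 (up to 65.2 CPM, in the culture table) and Csf1r (up to 5.25 CPM, in a single organoid). Adgre1 had 0 counts in the passage and single organoid tables and 1 count in the culture table, and Ptprc did not exceed 1.10 CPM in any library. Between culture methods, Cd68 was called higher in domes (3.06 ± 0.84, adjusted P = 0.0223, edgeR) and Cd14 lower (-1.60 ± 0.29, adjusted P = 0.00453); their part in the culture results was not tested. In bulk cultures, fewer cells of a type and less RNA per cell cannot be told apart.

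The genes lie in clusters (GRCm38, GENCODE M21). Gbp2, Gbp3, Gbp5 and Gbp7 are on chromosome 3, between 142493978 and 142638008, Gbp4, Gbp6 and Gbp9 on chromosome 5, between 105077630 and 105293698 and Igtp and Irgm1 on chromosome 11. Gbp4 and Gbp9 overlap each other and Gbp8 on the same strand, and Igtp overlaps Irgm2, so that counts in the shared stretches depend on how the reads were assigned. Of the 50-base words in the last 500 bases of Gbp6, 77.8% also occur in the neighbouring gene model Gm43302, and Gbp4 shares 19.4% of its words with other genes, so the levels of both are uncertain; for the other 8 members the share was at most 3.96%.

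RefSeq gives promoter windows for 6 members (Gbp2, Gbp3, Gbp5, Gbp7, Igtp and Irgm1); Gbp4, Gbp6, Gbp9 and Iigp1 are named only. The 250 bases before the start site were searched on both strands for the interferon-stimulated response element ISRE (written here as GAAANNGAAA) and for the gamma-activated site GAS (TTCNNNGAA), elements bound by factors that interferon activates. All 6 held an ISRE match in at least 1 window, against 2.98% of all 32851 promoter windows, and 3 (Gbp5, Gbp7 and Igtp) held a GAS match, against 7.02%. A second Gbp3 start site listed by RefSeq held neither. The following windows are shown because they differ in what they hold, with every match in capitals (RefSeq, GRCm38.p6, read 5′ to 3′ toward the start site):
Gbp3, chr3:142559794-142560043, + strand: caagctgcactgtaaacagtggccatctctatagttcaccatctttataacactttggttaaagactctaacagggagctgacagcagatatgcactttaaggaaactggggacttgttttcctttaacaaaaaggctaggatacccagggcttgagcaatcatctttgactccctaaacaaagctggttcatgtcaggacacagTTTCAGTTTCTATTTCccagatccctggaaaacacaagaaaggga
Gbp7, chr3:142530086-142530335, + strand: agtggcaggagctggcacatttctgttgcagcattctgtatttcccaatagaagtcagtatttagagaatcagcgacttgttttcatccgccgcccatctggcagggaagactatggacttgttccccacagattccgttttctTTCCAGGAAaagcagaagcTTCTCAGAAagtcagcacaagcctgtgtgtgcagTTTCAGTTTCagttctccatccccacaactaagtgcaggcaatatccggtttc
Igtp, chr11:58199306-58199555, + strand: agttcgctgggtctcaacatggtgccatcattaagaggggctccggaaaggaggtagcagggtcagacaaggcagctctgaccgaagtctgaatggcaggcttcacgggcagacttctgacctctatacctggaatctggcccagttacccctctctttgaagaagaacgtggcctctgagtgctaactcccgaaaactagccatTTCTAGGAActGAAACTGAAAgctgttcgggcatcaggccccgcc
In Gbp3, 2 overlapping ISRE matches lie 45 to 30 bases before the start site, and no GAS match is present. In Gbp7, GAS matches at 106 and 87 bases precede an ISRE match at 53 bases. In Igtp, a GAS match begins 45 bases before the start site and an ISRE match 34 bases before it. A match is a stretch of letters and not a measured binding site.

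In dome and suspension cultures the members were near the limit of detection. The summed level of the 10 genes was 5.07, 6.91 and 9.02 CPM in the domes and 5.97, 6.78 and 7.61 CPM in suspension, and the groups overlapped. Igtp, a regulatory IRG, had 3.66, 4.24 and 5.07 CPM in domes and 2.15, 1.56 and 3.39 CPM in suspension, without overlap, at a log2 fold change (dome over suspension) of 1.09 ± 0.38 (SE, n = 3 against 3). Irgm1 had 1.83, 2.65 and 0 CPM in domes and 2.87, 2.61 and 2.40 CPM in suspension, with a log2 fold change of -0.24 ± 0.58. Gbp2 was at 0.41, 0 and 0 CPM in domes and 0.96, 1.04 and 0.91 CPM in suspension, also without overlap. Its log2 fold change was -1.21 ± 0.70, from at most 11 counts in a library. The share of all genes without overlap is not given here. The other 7 members did not pass the filter on low counts, and none of them exceeded 1.06 CPM.

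None of the 3 members tested was called between culture methods by edgeR's quasi-likelihood test, where 29.8% of all 12699 genes tested were called. In that test 1 of the 3 (Igtp) had an unadjusted p below 0.05, as did 5417 of the 12699 genes. By limma-voom and DESeq2, 0 members were called as well. With a stricter minimum count, under which fewer genes were tested, Igtp was called. Of 22 genes listed as mainly induced by type I and III interferon, 18 were tested, and 13 were called higher in domes and 0 lower. Among them, Isg15, a ubiquitin-like protein, had a log2 fold change of 4.20 ± 0.65 (adjusted P = 0.00248, edgeR). Irf7, a transcription factor of the interferon response, was higher in domes by 4.27 ± 0.62 (adjusted P = 0.00201), whereas Irf1 had a log2 fold change of -0.05 ± 0.25 (adjusted P = 0.890). Of 17 genes listed as mainly interferon-gamma induced, 7 were tested and 2 were called higher, Psmb9 and Upp1. Whether the lists differ from one another was not tested.

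From passage 4 to passage 11, 6 members fell in bulk cultures, and the values differed between sets. At passage 4 the summed level of all 10 genes was 105, 141 and 232 CPM in Sets 1, 3 and 4, and at passage 11 it was 75.6, 22.3 and 19.5 CPM. On this sum, to which Igtp contributed most in Set 1, Sets 3 and 4 were higher than Set 1 at passage 4 and lower than it at passage 11. These are differences between 1 library per set and passage, and the difference between sets was not tested.

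Gbp3 fell furthest of the called members in the fit, which did not use the pairing of libraries by mouse. Its log2 fold change (passage 11 over passage 4) was -3.72 ± 0.45 (n = 3 against 3). Gbp3 had 24.0, 27.2 and 58.0 CPM in Sets 1, 3 and 4 at passage 4. At passage 11 it had 3.94, 2.23 and 0.67 CPM, so that every set was lower. Iigp1, the vacuole-loading effector, had 8.95, 15.1 and 17.5 CPM at passage 4 and 3.52, 0.20 and 0.67 CPM at passage 11, the last 2 from 1 count each, at a log2 fold change of -3.01 ± 0.59. Gbp9 had 6.39, 4.72 and 12.3 CPM at passage 4 and 1.66, 0.81 and 0 CPM at passage 11 (-2.85 ± 0.57). The passages did not overlap for these 3 genes, nor for Gbp2, Gbp6 and Gbp7. The share of all genes without overlap is not given here.

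Gbp2, which is recruited to bacteria and parasite vacuoles, had 12.8, 16.6 and 38.5 CPM at passage 4 and 9.74, 3.24 and 2.02 CPM at passage 11 (-1.97 ± 0.52). In Set 1 its technical replicates at both passages overlapped. Gbp7 had 6.90, 8.12 and 11.2 CPM at passage 4 and 4.35, 2.63 and 1.35 CPM at passage 11 (-1.46 ± 0.37). Gbp6 had 2.56, 3.21 and 4.70 CPM at passage 4 and 1.04, 0 and 0 CPM at passage 11 (-2.90 ± 0.74), with the uncertainty from Gm43302 given above.

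Igtp and Gbp4 went opposite ways in different sets. Igtp had 27.1, 51.2 and 72.5 CPM at passage 4 and 36.1, 8.50 and 11.4 CPM at passage 11, which was 1.33 times the passage 4 level in Set 1 and 0.166 and 0.158 times it in Sets 3 and 4, at a log2 fold change of -1.31 ± 0.50 over all sets. Gbp4 had 3 counts at passage 4 and 10 at passage 11 in Set 1, and 10 and 9 counts at passage 4 and 0 at passage 11 in Sets 3 and 4 (-0.70 ± 0.90). Irgm1 had 15.1, 13.02 and 14.8 CPM at passage 4, nearly the same in the 3 sets, and 13.3, 4.66 and 3.36 CPM at passage 11 (-0.83 ± 0.40). Gbp5, a GBP that promotes inflammasome assembly, did not pass the filter, with 0, 1 and 5 counts at passage 4 and 0 in all 3 libraries at passage 11.

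**Figure D1:**
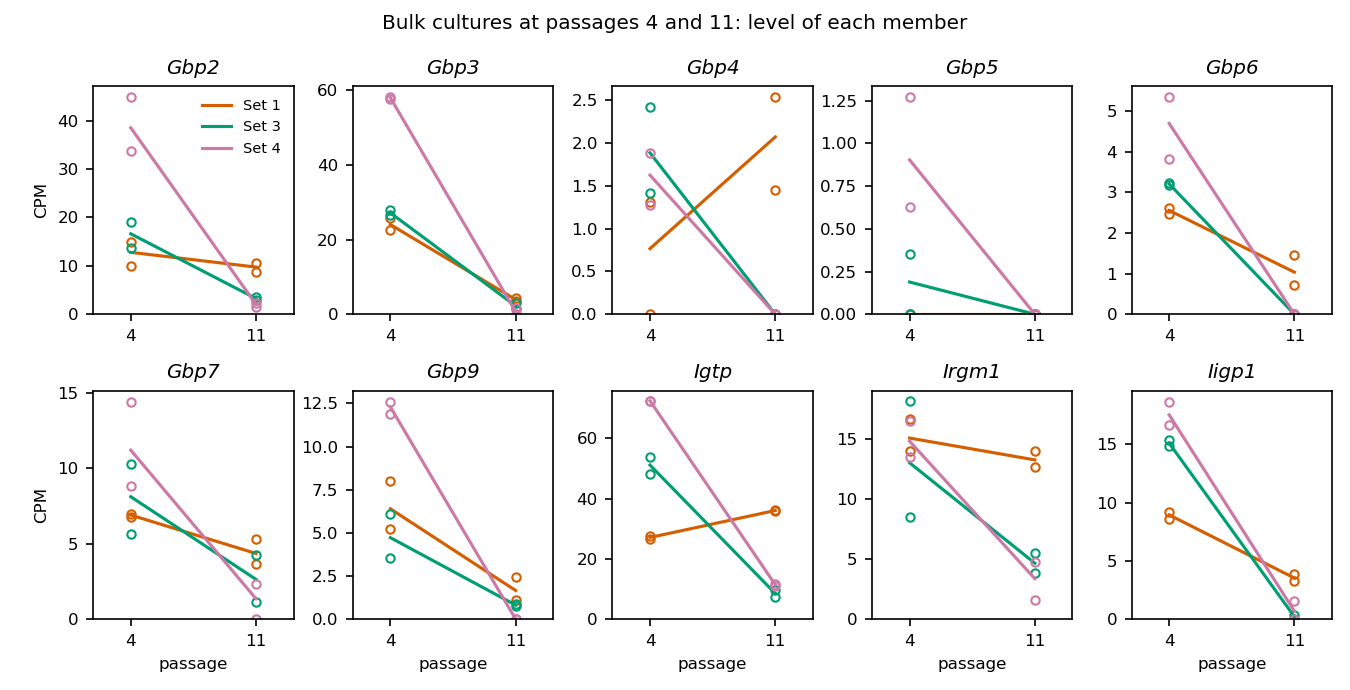
CPM of each of the 10 members (y axes, separate scales from 0) at passages 4 and 11 (x axes) in bulk cultures of Sets 1, 3 and 4. Lines join the summed libraries and open circles are the 2 technical replicates; Igtp rose from 27.1 to 36.1 CPM in Set 1 and fell from 51.2 to 8.50 CPM in Set 3.

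In the fit over all genes, 9 members were tested and 6 were called, all lower at passage 11 (Gbp2, Gbp3, Gbp6, Gbp7, Gbp9 and Iigp1), where 20.3% of all 13738 genes tested were called in either direction; the members were chosen with this comparison known, so nothing is read from their share. Their median log2 fold change was -1.97, beside -0.05 over all genes. The count changed when single libraries were left out. It was 3 without the passage 11 library of Set 3 and 3 without the passage 4 library of Set 4. It was 2 without both libraries of Set 3, 3 without both of Set 4 and 9 without both of Set 1. The calls over all genes in these runs are not given here, so these counts are not read as a trait of the members. The summed macrophage marker level, nearly all of it Cd14, moved with passage too, from 865 to 1191 CPM at passage 4 and from 403 to 577 CPM at passage 11, and its part in the result was not tested.

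The 4 other family genes tested also had negative log2 fold changes. Of 12 other GBP and IRG genes, 4 were tested; Gbp8 (-2.70 ± 0.73, adjusted P = 0.0265, edgeR) and Irgm2 (-1.48 ± 0.34, adjusted P = 0.0138) were called lower, while Tgtp1 (-1.43 ± 0.65, adjusted P = 0.148) and Tgtp2 (-1.97 ± 0.72, adjusted P = 0.0788) were not. Tgtp2, an effector IRG, had 115, 91.5 and 182 CPM at passage 4 in Sets 1, 3 and 4 and 73.8, 7.90 and 4.04 CPM at passage 11; all of its 3′ words are shared with Tgtp1, so the pair cannot be told apart by sequence there. Irf1 had a log2 fold change of -0.78 ± 0.29 (adjusted P = 0.0818). All 22 genes of the list of mainly type I and III induced genes were tested and 17 were called lower, as were 7 of 10 tested in the mainly interferon-gamma induced list, with 0 called higher in either. Rsad2, an antiviral enzyme, had a log2 fold change of -3.48 ± 0.76 (adjusted P = 0.0116), and Psmb8, a subunit of the immunoproteasome, of -2.81 ± 0.36 (adjusted P = 0.00114).

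Upstream, Ifng had no row in any table. Ifnb1, which encodes interferon beta, had 8 counts in all at passage 4 and 3 at passage 11. Ifngr1, the ligand-binding chain of the interferon-gamma receptor, fell by 0.55 ± 0.15 on the log2 scale (adjusted P = 0.0293), and Ifngr2 had a log2 fold change of 0.07 ± 0.17 (adjusted P = 0.825). Of 10 genes for the autophagy conjugation machinery, which helps to place these GTPases on vacuoles, 1 was called lower (Gabarapl1, -0.71 ± 0.18, adjusted P = 0.0220). Of 11 genes for ubiquitin at the vacuole and inflammasomes, 7 were tested and 3 called lower: Sqstm1 (-2.43 ± 0.30, adjusted P = 0.00100), Casp4 (-1.45 ± 0.21, adjusted P = 0.00195) and Pycard (-0.80 ± 0.22, adjusted P = 0.0299).

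Among single organoids the members were highest in Set 2 and differed most from organoid to organoid there. The summed level had a median of 14.6 CPM in Set 1 (9.65 to 20.0, n = 8), 56.6 CPM in Set 2 (23.1 to 449, n = 10), 30.5 CPM in Set 3 (23.5 to 37.2, n = 5) and 18.0 CPM in Set 4 (12.3 to 22.4, n = 12). Every kept organoid of Set 2 and of Set 3 was thus above every kept organoid of Sets 1 and 4. Among the organoids left out, those of Set 1 (29.6 and 24.9 CPM) and a pair from Set 4 (24.0 and 56.5 CPM) were above the lowest of Sets 2 and 3. Sets 2 and 3 were both at passage 3, Set 4 at passage 4 and Set 1 at passage 11; the levels of Sets 1 and 4 overlapped.

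Within Set 2, organoids 4 and 7 stood apart, with summed levels of 449 and 259 CPM from 1314 and 604 counts, while the other 8 lay between 23.1 and 89.6 CPM. In both, the rise covered GBPs and IRGs together. Iigp1 was at 128 CPM in organoid 4 and 21.8 in organoid 7, against 0 to 8.31 CPM in the other 8 organoids of Set 2. Gbp7 was at 122 and 80.9 CPM, against 6.09 to 26.0 CPM.

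Irgm1 was at 74.1 CPM in organoid 4 and 89.5 CPM in organoid 7, against 4.62 to 31.9 CPM in the other 8. Gbp3 was at 57.0 and 21.4 CPM, against 0.83 to 6.14 CPM. Gbp2 was at 22.2 and 16.7 CPM, against 1.58 to 5.08 CPM. These 2 organoids held the highest and second highest values of 9 members among all 35 organoids; the exception was Gbp6, whose second highest value was 2.54 CPM in organoid 6 of Set 2.

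Igtp was at 18.8 and 16.3 CPM against 1.97 to 13.5 CPM in the other organoids of the set. Gbp5 reached 2.39 CPM (7 counts) in organoid 4 and had 0 counts in the other 8. Ifnb1 had 1 count in organoid 4, the only count among the 35 organoids. No T and NK cell marker sum exceeded 1.28 CPM in any organoid. The summed macrophage markers of Set 2 ran from 251 to 418 CPM, within the range of Sets 1, 3 and 4 together, and were nearly all Cd14. Of these markers, Csf1r was called higher in Set 2 than in Set 1 and Set 4 (log2 fold change of Set 1 against Set 2 -1.29 ± 0.44, adjusted P = 0.0438; of Set 2 against Set 4 1.18 ± 0.40, adjusted P = 0.0431) and higher in Set 3 than in Set 1 and Set 4 (of Set 1 against Set 3 -1.77 ± 0.48, adjusted P = 0.0118; of Set 3 against Set 4 1.66 ± 0.45, adjusted P = 0.0111). Its part in the differences between sets was not tested.

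**Figure D2:**
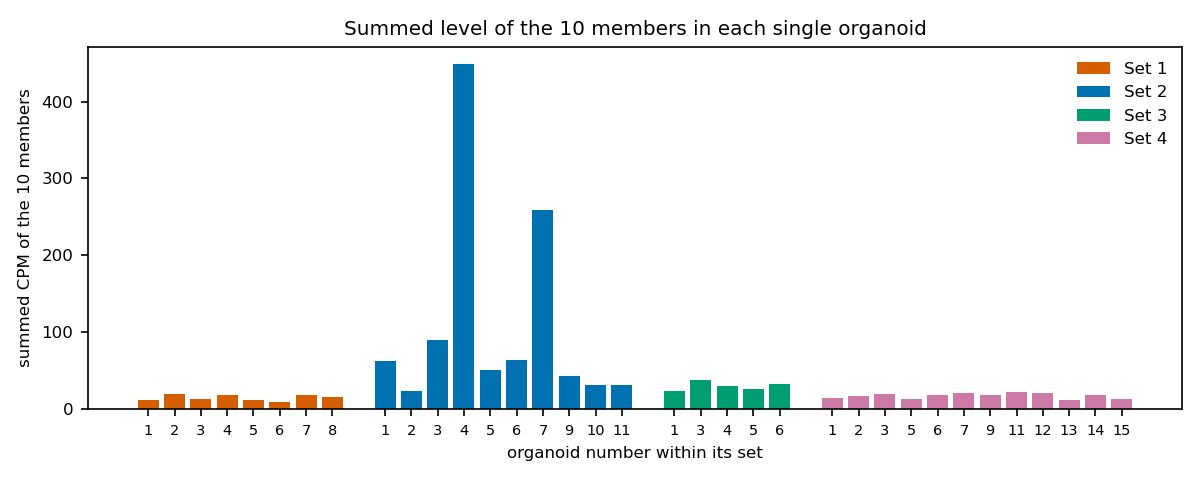
Summed CPM of the 10 members (y axis from 0) in each of the 35 kept organoids (x axis, organoid number within its set), coloured by set. Organoids 4 and 7 of Set 2 reached 449 and 259 CPM, and no other organoid exceeded 89.6 CPM.

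In the fit over the 35 organoids 7 members passed the filter (Gbp2, Gbp3, Gbp7, Gbp9, Igtp, Irgm1 and Iigp1), with P-values adjusted over the 6 comparisons together. Gbp4, Gbp5 and Gbp6 did not pass; they had counts in 11, 5 and 14 of the 35 organoids. Against Set 2, all 7 were called lower in Set 1, where 14.3% of all 13927 genes were called. Against Set 4, all 7 were called higher in Set 2, where 12.4% were called. Against Set 3, 5 of 7 were called higher in Set 2 and Igtp and Irgm1 were not called, where 3.93% were called. For that pair limma-voom called 2 (Gbp2 and Gbp7), and a minimum count of 10, under which 5 members were tested, called 3 (Gbp2, Gbp7 and Iigp1). All-gene calls under these settings are not given here, so these counts are not read as a trait of the members.

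Gbp7 had medians of 1.16, 14.2, 3.13 and 2.48 CPM in Sets 1, 2, 3 and 4, and every organoid of Set 2 but 1 was above the highest of Sets 1, 3 and 4. Its log2 fold change was 3.69 ± 0.41 in Set 2 over Set 4. Iigp1 had medians of 0.88, 3.595, 0.56 and 0.27 CPM, with overlap between Set 2 and each other set, and a log2 fold change of 4.62 ± 0.72 in Set 2 over Set 4. Both genes were lowest in median in a different set, Gbp7 in Set 1 and Iigp1 in Set 4.

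Gbp3 ran from 0 to 1.58 CPM in Set 1 (median 0.35), from 0.83 to 57.0 in Set 2 (2.91), from 0.86 to 1.67 in Set 3 (1.17) and from 0 to 1.52 in Set 4 (0.53). Gbp2 had medians of 1.19, 4.43, 1.17 and 1.45 CPM in Sets 1, 2, 3 and 4, and Gbp9 had medians of 0.20, 1.78, 0.86 and 0.46 CPM. For these 3 GBPs the range of Set 2 overlapped that of each other set, with lowest values of 1.58 (Gbp2), 0.83 (Gbp3) and 0.39 CPM (Gbp9) in Set 2.

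Of the regulatory IRGs, Igtp had medians of 1.49, 7.71, 4.69 and 2.23 CPM in the 4 sets, with log2 fold changes of 1.73 ± 0.30 in Set 2 over Set 4 and 0.98 ± 0.38 in Set 2 over Set 3. Irgm1 had medians of 7.17, 18.9, 17.0 and 7.88 CPM; Set 2 over Set 4 gave 1.75 ± 0.31 and Set 2 over Set 3 gave 0.85 ± 0.40.

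**Figure D3:**
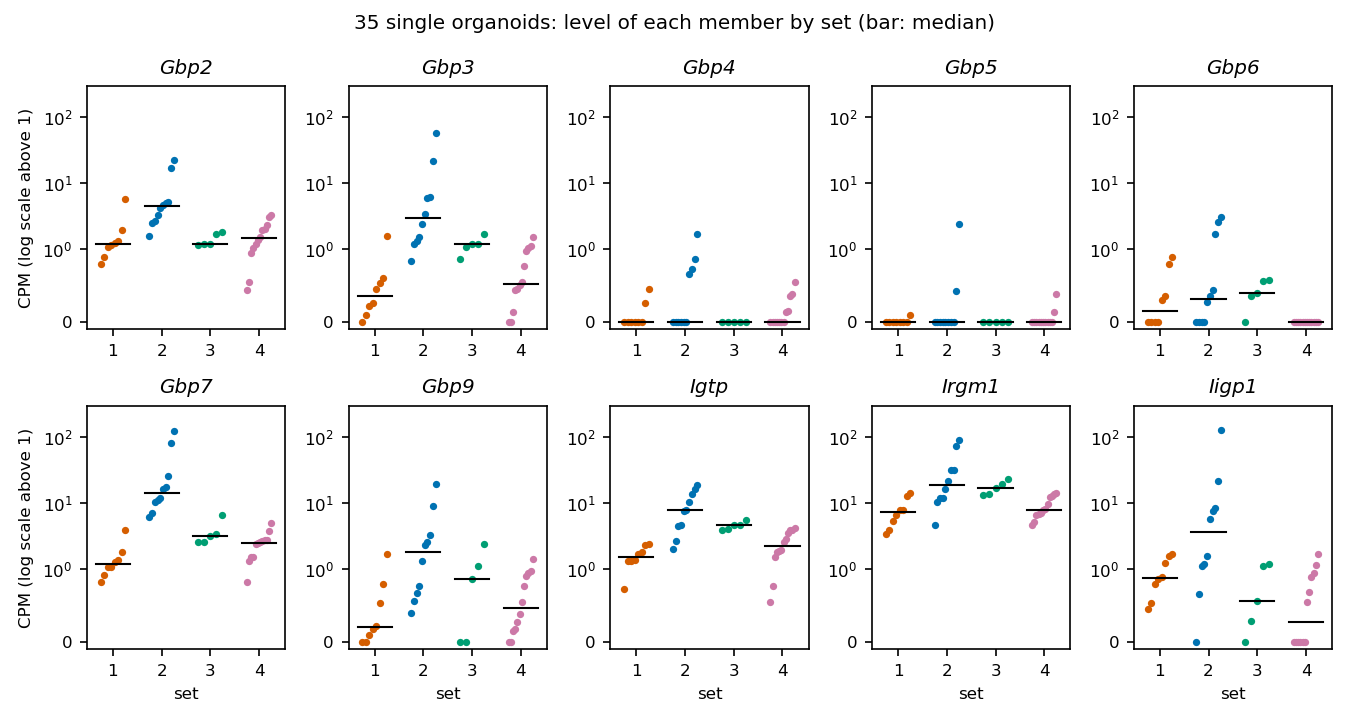
CPM of each member (y axes, linear to 1 and logarithmic above) in the 35 kept organoids by set (x axes). Points are organoids and bars are medians; Gbp7 had a median of 14.2 CPM in Set 2 and 1.16 CPM in Set 1.

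Organoids 4 and 7 carried part of the size of these differences. Without both, an alternative added after seeing the data, 7 members were still called against Set 1, 6 against Set 4 (Gbp9 was not) and 3 against Set 3 (Gbp2, Gbp7 and Iigp1). The log2 fold change of Gbp7 in Set 2 over Set 4 was then 2.48, that of Iigp1 was 2.16 and that of Gbp3 was 2.16 in place of 4.06. Calls over all genes without these organoids are not given here, so the counts are not read as a trait of the members.

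The 3 other sets lay closer together. Between Sets 1 and 3, 1 of 7 members was called (Igtp, lower in Set 1 by a log2 fold change of -1.48 ± 0.43), where 9.43% of all genes were called. Igtp was between 0.72 and 2.37 CPM in Set 1 and between 3.89 and 5.42 CPM in Set 3, without overlap among kept organoids. The left-out organoids of Set 1 had 7.90 and 5.19 CPM, and Igtp was not called with all 42 organoids or after thinning to the smallest library total. Between Sets 1 and 4, where 20.0% of all genes were called, 0 of 7 were called by edgeR's quasi-likelihood test, limma-voom and DESeq2. In the edgeR fit 0 of 7 had an unadjusted p below 0.05, beside 5192 of all 13927 genes. Between Sets 3 and 4, where 11.6% of all genes were called, 0 of 7 were called by the same 3 tools. In the edgeR fit 1 of 7 had an unadjusted p below 0.05, beside 4221 of all 13927 genes.

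**Figure D4:**
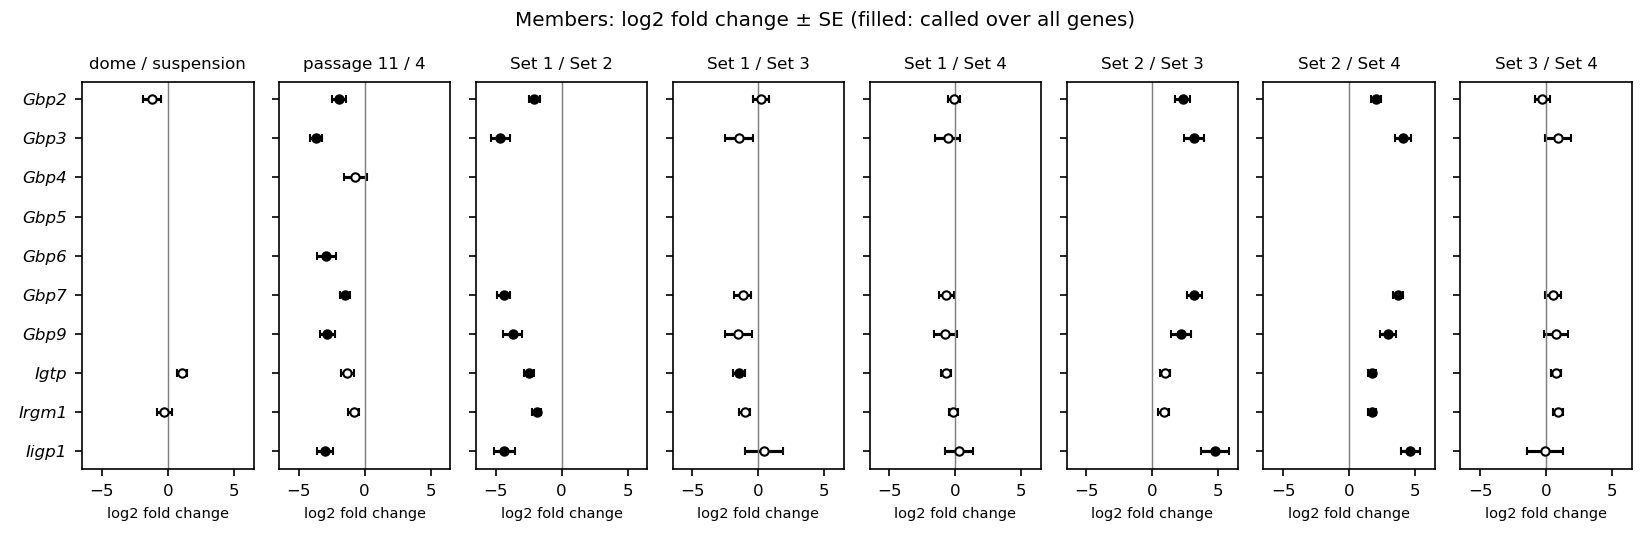
Log2 fold changes (x axes) with SE (bars) of the members tested (rows) in the 8 comparisons; filled points were called in the fit over all genes and members without a point were not tested. All 7 points of Set 2 over Set 4 lie between 1.73 and 4.62.

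Other genes of the families were also higher in Set 2. Of the 5 tested, 5 were called higher in Set 2 than in Set 4 and 4 lower in Set 1 than in Set 2. Here and in the other comparisons between sets, P-values rest on the spread between organoids of 1 culture per set and not between mice. Tgtp2 had medians of 1.24, 9.51, 7.05 and 2.11 CPM in Sets 1, 2, 3 and 4. Its log2 fold change was 2.61 ± 0.37 in Set 2 over Set 4 (adjusted P = 3.77e-06, edgeR). Irgm2, also a regulatory IRG, gave 2.03 ± 0.38 (adjusted P = 0.000238, edgeR). Gvin1, a giant interferon-inducible GTPase whose 3′ end is shared with Gm4070, gave 4.40 ± 0.76 (adjusted P = 8.82e-05, edgeR). For Gvin1, organoid 4 of Set 2 had 77.8 CPM (228 counts), and no other kept organoid of Set 2 exceeded 10.1 CPM. Gbp8 differed from Tgtp2, Irgm2 and Gvin1 in its order. Its median was 0.97 CPM in Set 1, 0.78 in Set 2, 0.36 in Set 3 and 0 in Set 4. It was called higher in Set 1 than in Set 4 (2.79 ± 0.59, adjusted P = 0.00111, edgeR). Gbp2b, Gbp10 and Gbp11 were not tested, and Gbp11 had 0 counts in all 35 organoids.

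The transcription factor Irf1 had a log2 fold change of 0.67 ± 0.20 in Set 2 over Set 4 (adjusted P = 0.0220) and -0.06 ± 0.21 in Set 1 over Set 2 (adjusted P = 0.903). Ifngr1 and Ifngr2 were at medians between 74.0 and 147 CPM in every set, and neither was called between Sets 2 and 4 (adjusted P = 0.828 and 0.528). Ifngr1 was called lower in Set 2 than in Set 3 (-0.66 ± 0.21, adjusted P = 0.0346) and higher in Set 3 than in Set 4 (0.74 ± 0.21, adjusted P = 0.0140), and Ifngr2 higher in Set 1 than in Set 4 (0.77 ± 0.20, adjusted P = 0.00829). All 22 tested genes of the mainly type I and III induced list were called higher in Set 2 than in Set 4, and 4 of 8 tested in the mainly interferon-gamma induced list were.

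The genes whose level followed the members most closely over the 35 organoids were Ifit3, Rsad2, Ifit1, Isg15 and Parp14. After centring on set means, the Pearson correlation of log2 CPM with the mean of the 7 tested members was 0.90, 0.89, 0.83, 0.82 and 0.81 among 8262 genes, and Spearman's rho was 0.66, 0.74, 0.69, 0.74 and 0.64. The points share 4 cultures and are given as a description. Organoids 4 and 7 of Set 2 were the 2 farthest from the median; without them the correlations were 0.74, 0.75, 0.69, 0.66 and 0.62. Ifit3 was at 468 and 205 CPM in organoids 4 and 7, beside a median of 18.0 CPM over Set 2. The correlation of the centred member mean with the log2 library total was -0.20.

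Bulk and single libraries of the same set gave different levels. At passage 4, Set 4 had 72.5 CPM of Igtp in bulk and a median of 2.23 CPM over its single organoids, and at passage 11 Set 1 had 36.1 CPM in bulk and a median of 1.49 CPM over single organoids. The tables come from separate experiments, so these values were set side by side and not tested. Total RNA was used for bulk organoids, while mRNA of single organoids was captured on beads and its input scaled by the level of Actb. Single organoids were taken from suspension cultures. In the culture experiment, also of bulk organoids, Igtp was at 1.56 to 3.39 CPM in suspension and 3.66 to 5.07 CPM in domes. The part of these differences in the levels was not tested.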

How the data were processed

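The deposited values were whole-number counts per Ensembl gene in 3 tables, which the authors made from 3′-end libraries with molecular identifiers by zUMIs (STAR and featureCounts, mm10), with down-sampling where library sizes varied; SAMtools 1.9 is named in the submitters' processing notes. The sources used here do not give whether reads or identifiers were counted. All 60 value columns were used. Technical replicates were summed. Genes were filtered with filterByExpr (minimum count 3), scaled by TMM and tested with edgeR 4.0.16 (quasi-likelihood, Benjamini-Hochberg adjustment) in R 4.3.3; limma-voom (limma 3.58.1), DESeq2 1.42.0, RLE size factors, other filters, thinning, left-out libraries and a replicate block were alternatives. The edgeR fit was first tried on simulated data, only for dome against suspension, for the passages and for Set 1 against Set 2. P-values were adjusted there within the comparison, and the outcome is not given here.

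The members and all gene lists were chosen with earlier results of these data known. Named were the members, other GBP and IRG genes, Ifng, Ifngr1, Ifngr2 and Irf1, up to 3 called genes with the largest change per list, and the 5 genes most like the members whose average log2 CPM was 3 or more; Cd14 and other markers, Ifnb1, Pycard and Upp1 were named beside counts or results.

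Passage libraries were paired by mouse; deviations of same-numbered libraries correlated at 0.11, 0.03 and 0.11, and in the culture experiment, where the labels name pools, at 0.15, 0.16 and 0.19. Organoid numbers only name organoids. The 7 organoids left out by the study stayed out. A gene that the naming rule covers is not reported here.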

Additional observations from a re-analysis of the deposited data

Results flagged for a closer look

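In groups of 5 to 10 organoids, 28 sets of member values were examined for a single organoid far from the rest, and 10 held one. Some of these rest on 1 or 2 counts, so no chance rate is set beside the 10. Organoid 4 of Set 2, the highest of its set for 9 members, was apart by this measure for 5, with Gbp3 at 57.0 CPM (next 21.4), Gbp4 at 1.71 CPM (5 counts), Gbp5 at 2.39 CPM (7 counts), Gbp9 at 19.1 CPM (next 8.99) and Iigp1 at 128 CPM (next 21.8). In Set 1, organoid 7 was apart for Gbp2 at 5.76 CPM (7 counts), organoid 8 for Gbp3 at 1.58 CPM (2 counts) and Gbp7 at 3.94 CPM (5 counts), and organoid 1 for Gbp5 at 0.089 CPM (1 count). In Set 3, organoid 4 was apart for Gbp7 at 6.45 CPM (11 counts).

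Between passages, bulk Set 1 went the opposite way to Sets 3 and 4 for 2 members. For Igtp the passage 11 level was 1.33 times that of passage 4, and both technical replicates rose. For Gbp4 it was 2.702 times (10 counts against 3). The first technical replicate of Gbp4 had 0 counts at passage 4 and 7 at passage 11, and the second had 3 at each passage. The difference between sets was not tested.

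The 7 organoids that the study left out also held member counts above the level of 3 counts. Their summed member levels were 29.6 and 24.9 CPM in organoids 9 and 10 of Set 1, 26.0 CPM in organoid 8 of Set 2, 26.1 CPM in organoid 2 of Set 3, and 24.0, 21.7 and 56.5 CPM in organoids 4, 8 and 10 of Set 4. Organoids 4 and 10 of Set 4 (16 and 49 counts) lay above the 22.4 CPM of the highest kept organoid of their set, and both left-out organoids of Set 1 lay above the 20.0 CPM of the highest kept one.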

How the results depend on the processing

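No member's log2 fold change that had been called changed sign under any alternative run. A minimum count of 10 called 1 member between dome and suspension and 3 between Sets 2 and 3. For Sets 2 and 3, limma-voom called 2 and leaving out organoids 4 and 7 of Set 2 called 3. Thinning to the smallest total and using all 42 organoids each called 0 between Sets 1 and 3, and no filter called 1 between Sets 3 and 4; the cause was not tested. Leaving out libraries gave 2 to 9 called members between passages and 4 to 5 between Sets 2 and 3. With the replicate block, 6 members were called between passages and 0 between culture methods, as without it; organoid numbers pair nothing, and a block on them gave 4 between Sets 2 and 3. Using 1 technical replicate gave 4 between passages. Calls over all genes in these alternative runs are not given here, so the counts are not read as a trait of the members. At 1059002 counts, the smallest kept organoid, 3 counts equal 2.83 CPM, so lower levels in single organoids rest on few counts.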
